A study of Saccharomyces cerevisiae with 36 samples.

Results

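The 10 yeast genes described here encode the enzymes that make serine, turn serine into glycine, cleave glycine and pass on the released one-carbon unit. They were SER3 (YER081W), SER33 (YIL074C), SER1 (YOR184W), SER2 (YGR208W), GCV1 (YDR019C), GCV2 (YMR189W), GCV3 (YAL044C), SHM1 (YBR263W), SHM2 (YLR058C) and MTD1 (YKR080W), and they are 10 of the 6600 open reading frames (ORFs) with deposited counts. The group was chosen by a measured value, the change of SER3 in heated rrp6Δ cells, and built around that gene. Every value of the 10 genes that involves a heated rrp6Δ library is therefore given as a description, without a test. The same holds for SER3 in unheated rrp6Δ cells, a possible base of that change. What the change was measured against is not stated, and heated WT is another possible base. Tests of SER3 that use heated WT libraries may therefore draw on values behind the choice. All 10 genes passed the low-count filter that left 6017 ORFs for testing.

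Total RNA was sequenced from 4 strains of BY4742, a common laboratory strain of Saccharomyces cerevisiae: the wild type (WT), mpk1Δ, rrp6Δ and the mpk1Δ rrp6Δ double deletion. Each strain was grown in YPD, a rich medium, at 25 °C and sampled before heat (0 min) and after 10 and 45 min at 42 °C, reached by adding pre-warmed medium. The duration label carries no unit and was read as minutes. Each of the 12 groups had 3 replicates, lettered A, B and C and called biological in the series design. MPK1, listed as SLT2, encodes the kinase at the end of the cell wall integrity cascade, and RRP6 encodes the nuclear exonuclease of the RNA exosome. The heat comparisons of a strain share its unheated libraries, and the mpk1Δ and rrp6Δ comparisons with WT share the WT libraries.

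Serine is made from a glycolytic intermediate in 3 steps: Ser3 or its paralog Ser33 oxidises 3-phosphoglycerate, Ser1 adds the amino group and Ser2 removes the phosphate. The serine hydroxymethyltransferases Shm1, in mitochondria, and Shm2, in the cytosol, convert serine and glycine into each other while loading or unloading a one-carbon unit on folate. The mitochondrial glycine cleavage complex, with the subunits Gcv1, Gcv2 and Gcv3 and the shared subunit Lpd1, releases a one-carbon unit from glycine, and Mtd1 oxidises the folate-bound unit in the cytosol. In yeast grown with serine, SER3 is known to be repressed by transcription of SRG1, a non-coding RNA that starts upstream of SER3 and runs across its promoter, while the GCV genes respond to glycine and, with SHM2 and MTD1, to the activator Bas1.

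Total counts over the ORFs were 2235918 to 12072112 per library. Levels are in CPM, a count expressed relative to the size of its library, with sizes adjusted by TMM, a trimmed mean of log ratios between libraries. The label check held, since 18 libraries of the strains without SLT2 had 6 SLT2 counts in all and 18 libraries of the strains without RRP6 had 2 RRP6 counts in all, against at least 111 and 40 per library elsewhere. A gene is called changed where its quasi-likelihood test in edgeR gave a p below 0.05 after Benjamini-Hochberg adjustment across the 6017 ORFs. Differences are log2 values ± standard error (SE) from 3 libraries per group. Whether the libraries of the groups compared overlap is given as a description, and its share over all ORFs was not worked out. In RNA from whole cultures, a change in every cell and a change in a share of the cells cannot be told apart. Scaling by total counts in place of TMM moves the median of all ORFs by -0.71 in WT at 45 min against 0 min, by 0.76 in mpk1Δ against WT at 45 min and by -0.30 in the double deletion against mpk1Δ at 45 min, so differences are relative to the bulk of the ORFs.

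SER3 lies on the plus strand of chromosome V at 322686 to 324095 in genome build R64, the build of the deposited counts, and the annotated SRG1 (322212 to 322762) ends inside it. The stretch below runs from 223 bases before the SER3 ORF to the end of SRG1, and is shown because the SER3 count includes it in part. The capitals are the 77 bases of the SER3 ORF that SRG1 also covers, 5.46% of the ORF, and SRG1 starts 474 bases upstream of the SER3 start codon.
SER3, chrV:322463-322762, plus strand: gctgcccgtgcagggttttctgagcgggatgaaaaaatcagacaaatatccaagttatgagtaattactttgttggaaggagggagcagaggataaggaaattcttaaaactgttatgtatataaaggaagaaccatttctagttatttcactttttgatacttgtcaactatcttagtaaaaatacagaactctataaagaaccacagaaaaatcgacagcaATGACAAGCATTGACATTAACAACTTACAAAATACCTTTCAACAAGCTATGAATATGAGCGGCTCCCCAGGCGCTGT
Reads from SRG1, or from an RNA that continues out of SRG1 into SER3, cannot be told apart from SER3 mRNA in a count per ORF. SRG1 itself was not analysed here. None of the other 9 ORFs overlaps an annotated gene.

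**Figure D1:**
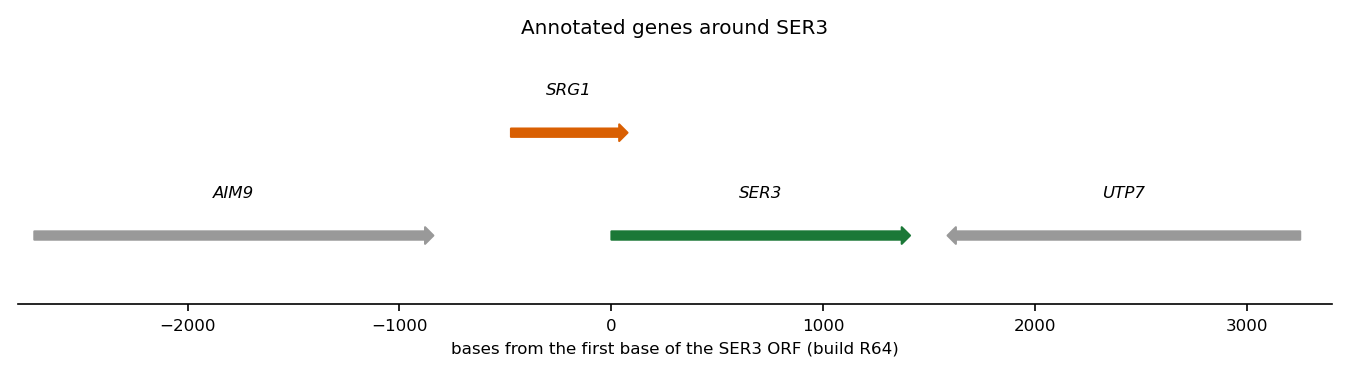
Annotated genes around SER3, drawn to scale as bases from the SER3 start codon, with arrows for strand. SRG1 starts 474 bases upstream of SER3, on the same strand, and covers the first 77 bases of its ORF.

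A second set of sequences comes from the starts of GCV1, GCV2, GCV3, SHM2 and MTD1. Among the 9 genes other than SER3, these were the ones called higher in unheated rrp6Δ than in WT. The motif TGACTC, the core bound by Bas1 and by Gcn4, was searched on both strands from 250 bases before to 50 bases after each start codon. It was present in 479 of 6001 such windows (7.98%) and in 8 of the 10 genes, all except SER3 and SHM1. The windows below are 30 bases, on the strand of the gene, with the motif or its reverse complement GAGTCA in capitals.
GCV1, chrIV:485491-485520, minus strand: gctcaggagcccTGACTCgtgttgcctcga
GCV2, chrXIII:637250-637279, plus strand: gactctcagagGAGTCAtcgaagtcagcat
GCV3, chrI:58558-58587, minus strand: cacttccgtaagGAGTCAttcagcggcgga
GCV3, chrI:58542-58571, minus strand: cattcagcggcgGAGTCActttcgctaact
SHM2, chrXII:259611-259640, minus strand: accataaaggttTGACTCtatctcttgggt
MTD1, chrXI:590209-590238, plus strand: attatgatatatTGACTCagtagaaaagga
The motif starts 143 bases before the start codon in GCV1, 239 in GCV2, 113 and 97 in GCV3, 227 in SHM2 and 174 in MTD1. In the windows not shown it starts 154 bases before in SER33, 184 in SER1 and 155 in SER2. Before heat, SER33 and SER2 were not called higher without RRP6 in either background. SER1 was called higher only in the double deletion against mpk1Δ. The longer Gcn4 site TGACTCA, which contains the core, was in 2.73% of windows and in MTD1 alone among the 10. The stress element core AGGGG was in 21.6% of windows and in SHM1 alone. The heat shock pair GAANNTTC was in 11.8% of windows and in none of the 10.

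SER3, the first enzyme of serine synthesis, was the gene of the 10 that heat raised most in WT at 10 min, and its rise was smaller without MPK1. In WT it stood at 76.7, 77.1 and 86.5 CPM (A, B and C) at 0 min, at 307.5, 338.5 and 292.6 CPM at 10 min and at 424.9, 434.6 and 347.8 CPM at 45 min. The 3 times did not overlap. The log2 rise was 1.97 ± 0.17 at 10 min (adjusted p = 1.42e-11, edgeR) and 2.33 ± 0.17 at 45 min (adjusted p = 3.03e-13). With 2 genes higher and 5 lower among the 10 at 10 min, and 3 higher and 5 lower at 45 min, the background was 74.5% of ORFs called at 10 min (38.3% higher, 36.2% lower) and 80.2% at 45 min (41% higher, 39.2% lower). At 45 min the total-count scaling gave 2 higher and 6 lower, where 1618 of the 6017 ORFs were called higher and 3311 lower.

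In mpk1Δ, SER3 rose from 102.4, 100.4 and 94.7 CPM to 188.8, 143.3 and 236.7 CPM at 10 min and to 257.2, 325.5 and 322.9 CPM at 45 min. Each heated library was above each unheated one. The log2 rise was 0.94 ± 0.17 at 10 min and 1.61 ± 0.17 at 45 min, with adjusted p of 7.69e-06 and 3.32e-10 (edgeR). The rise was smaller than that of WT by 1.03 ± 0.23 at 10 min (adjusted p = 0.00296) and by 0.72 ± 0.23 at 45 min (adjusted p = 0.0132). It also began from a higher unheated mean, 99.2 CPM in mpk1Δ against 80.1 CPM in WT. That unheated difference was not called, but was called higher, at 0.35, in a fit of only the libraries compared. The 45 min difference between the rises came to -0.11 and was no longer called when libraries were scaled by total counts.

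In the double deletion, SER3 stood at 135.4, 138.5 and 190.2 CPM at 0 min, at 149.7, 154.0 and 126.6 CPM at 10 min and at 157.9, 179.8 and 246.8 CPM at 45 min. The unheated libraries overlapped those of both heated times, and the 10 min libraries were all below the 45 min ones. The log2 difference from 0 min was -0.11 ± 0.16 at 10 min (95% interval -0.43 to 0.21, adjusted p = 0.542) and 0.33 ± 0.16 at 45 min (0.01 to 0.65, adjusted p = 0.0651, edgeR). The response to heat was lower than in mpk1Δ by 1.05 ± 0.23 at 10 min (adjusted p = 0.00454) and by 1.27 ± 0.23 at 45 min (adjusted p = 0.000289). Both differences stayed called in each alternative tried. The response within the double deletion did not: DESeq2 called SER3 higher at 45 min, at 0.42, and scaling by total counts called it lower at 10 min, at -0.60. The 45 min rise was also called without 45 min library A (0.49), 45 min library B (0.41) or 0 min library C (0.50). A filter on mean CPM (0.41) and DESeq2 size factors in edgeR (0.42) called it too.

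In rrp6Δ, whose heated libraries led to the choice of these genes, SER3 stood at 189.4, 240.8 and 233.4 CPM at 0 min, at 171.3, 160.7 and 184.2 CPM at 10 min and at 240.4, 203.3 and 216.8 CPM at 45 min. The 10 min libraries were below the unheated ones, and the 45 min libraries overlapped them. The log2 values are -0.36 ± 0.16 and -0.01 ± 0.16 for heat, and -0.86 ± 0.16 and -0.87 ± 0.17 against heated WT at 10 and 45 min. They are given as a description.

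**Figure D2:**
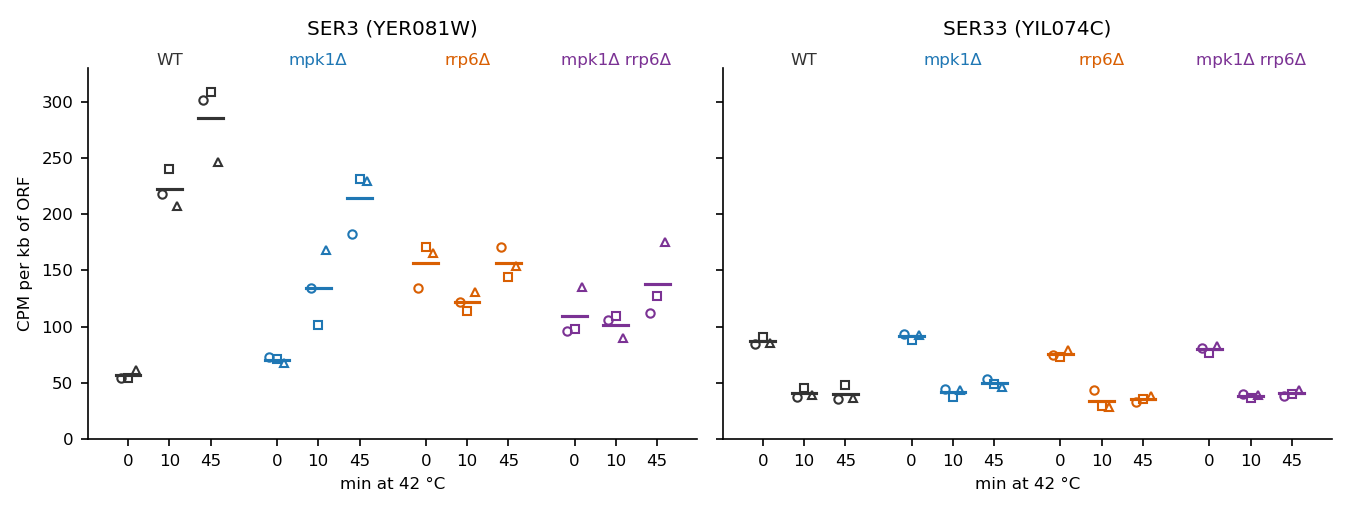
Level of SER3 and SER33 in each library, in CPM per kilobase of ORF, by strain and minutes at 42 °C. Circles, squares and triangles are replicates A, B and C and bars are group means. SER3 rises with heat in WT and mpk1Δ, and in the double deletion the unheated libraries overlap both heated times, while SER33 is lower after heat in each strain.

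Ranked by mean level per kilobase of ORF, the 12 groups ran for SER3 from 285 ± 34 CPM per kb (SD, n = 3) in WT at 45 min to 56.8 ± 3.9 in WT at 0 min. Next below the top came WT at 10 min (222), mpk1Δ at 45 min (214), rrp6Δ at 0 min (157) and at 45 min (156), and the double deletion at 45 min (138). They were followed by mpk1Δ at 10 min (134), rrp6Δ at 10 min (122), the double deletion at 0 min (110) and at 10 min (102), and mpk1Δ at 0 min (70.3). Of the 11 pairs of neighbours in this order, 7 overlapped. The 4 that did not were WT at 45 and 10 min, mpk1Δ at 45 min and unheated rrp6Δ, the double deletion at 10 min and unheated mpk1Δ, and the unheated mpk1Δ and WT groups. The 5 genes of 5457 whose group means followed SER3 most closely over the 12 groups were MET3, for sulfate assimilation (Pearson r = 0.916), PBI1 (0.912), RMD6 (0.905), YDR042C (0.900) and FLO1, a cell wall flocculin (0.896). These r values describe group means that share libraries and depth.

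SER33, the paralog of SER3, moved the other way with heat. In WT it fell from 118.7, 128.1 and 120.8 CPM to 53.3, 63.6 and 55.4 CPM at 10 min and 50.7, 67.9 and 51.2 CPM at 45 min, with no overlap between unheated and heated libraries. The log2 change was -1.10 ± 0.12 (adjusted p = 2.16e-09) and -1.09 ± 0.13 (adjusted p = 4.5e-09). It also fell in mpk1Δ, by 1.13 ± 0.12 and 0.88 ± 0.12, and in the double deletion, by 1.05 ± 0.12 and 0.97 ± 0.12. SER33 was called in none of the strain comparisons and in none of the 4 comparisons of heat responses. In mpk1Δ against WT at 45 min it was called higher with total counts (1.03), without WT library B (0.44) and without mpk1Δ library C (0.32). Total counts also called the late response higher in mpk1Δ than in WT (0.80) and the level lower in the double deletion than in mpk1Δ at 45 min (-0.58), and a fit of only the libraries compared called it lower in unheated rrp6Δ than in WT (-0.20).

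The ratio of the paralogs therefore turned with heat. On the log2 scale per kilobase, SER3 over SER33 was -0.61 ± 0.12 (SD, n = 3) in unheated WT, 2.45 ± 0.07 at 10 min and 2.84 ± 0.20 at 45 min. In mpk1Δ the means were -0.38, 1.66 and 2.11, and in the double deletion 0.44, 1.39 and 1.74. In rrp6Δ they were 1.05, 1.87 and 2.13, as a description. The highest ratio of unheated WT and mpk1Δ was below 0, and the lowest ratio of every other group was above 0. The ORFs of the pair are identical at 82.4% of bases, with a longest shared run of 56 bases, and 11 of the 1361 stretches of 50 bases in SER3 occur elsewhere in the genome, which are 0.808% of such stretches.

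The genes for the later steps of serine synthesis fell. SER1, the transaminase, went from 265.4, 266.4 and 280.1 CPM in unheated WT to 122.3, 146.7 and 151.4 CPM at 10 min and 63.0, 91.0 and 73.5 CPM at 45 min. SER2, the phosphatase, went from 98.9, 90.1 and 104.5 CPM to 59.2, 60.6 and 53.8 CPM and then to 42.0, 34.9 and 41.2 CPM. Heated and unheated libraries did not overlap for either gene. In WT the log2 changes were -0.95 ± 0.11 and -1.81 ± 0.12 for SER1 and -0.76 ± 0.11 and -1.34 ± 0.12 for SER2. In mpk1Δ they were -0.90 and -1.81 for SER1 and -1.14 and -1.44 for SER2. In the double deletion they were -0.67 and -1.87 for SER1 and -0.90 and -0.73 for SER2. All 12 changes were called (adjusted p at most 1.88e-06, edgeR), and no alternative ended one. The late fall of SER2 was smaller in the double deletion than in mpk1Δ by 0.72 ± 0.15 (adjusted p = 0.00125), a difference of 0.29 that was not called with total counts.

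SHM1, for the mitochondrial hydroxymethyltransferase, also fell in each strain tested. In WT it went from 290.9, 285.2 and 342.2 CPM to 117.7, 130.7 and 111.0 CPM and then to 71.7, 99.4 and 81.2 CPM, with log2 changes of -1.35 ± 0.15 and -1.84 ± 0.16. The changes were -1.84 and -2.07 in mpk1Δ and -1.97 and -2.43 in the double deletion, all called. SHM2, for the cytosolic enzyme, went in WT from 142.7, 132.2 and 120.2 CPM to 95.8, 66.6 and 57.9 CPM and then to 68.0, 66.5 and 41.7 CPM. Its log2 changes were -0.85 ± 0.37 (adjusted p = 0.0382) and -1.16 ± 0.38 (adjusted p = 0.00718, edgeR). The earlier call was lost without 0 min library A (-0.79) or B (-0.85) or 10 min library B (-0.75) or C (-0.66), and the later one without 45 min library C (-0.93).

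In mpk1Δ, SHM2 instead rose late. It went from 136.7, 115.8 and 110.8 CPM to 138.3, 120.9 and 88.3 CPM at 10 min and to 234.5, 522.5 and 261.1 CPM at 45 min. The 45 min libraries were above the unheated ones, with library B the highest. The late rise was 1.49 ± 0.36 (adjusted p = 0.000387), and it exceeded the late change in WT by 2.65 ± 0.53 (adjusted p = 0.00019, edgeR). The log2 ratio of SHM2 over SHM1 per kilobase had means of -1.15, -0.67 and -0.48 in WT at 0, 10 and 45 min and of -1.08, 0.67 and 2.39 in mpk1Δ. In the double deletion the means were 0.41, 1.31 and 2.13. The lowest ratio of mpk1Δ at 45 min was 2.05 and the highest of WT at 45 min was -0.01.

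**Figure D3:**
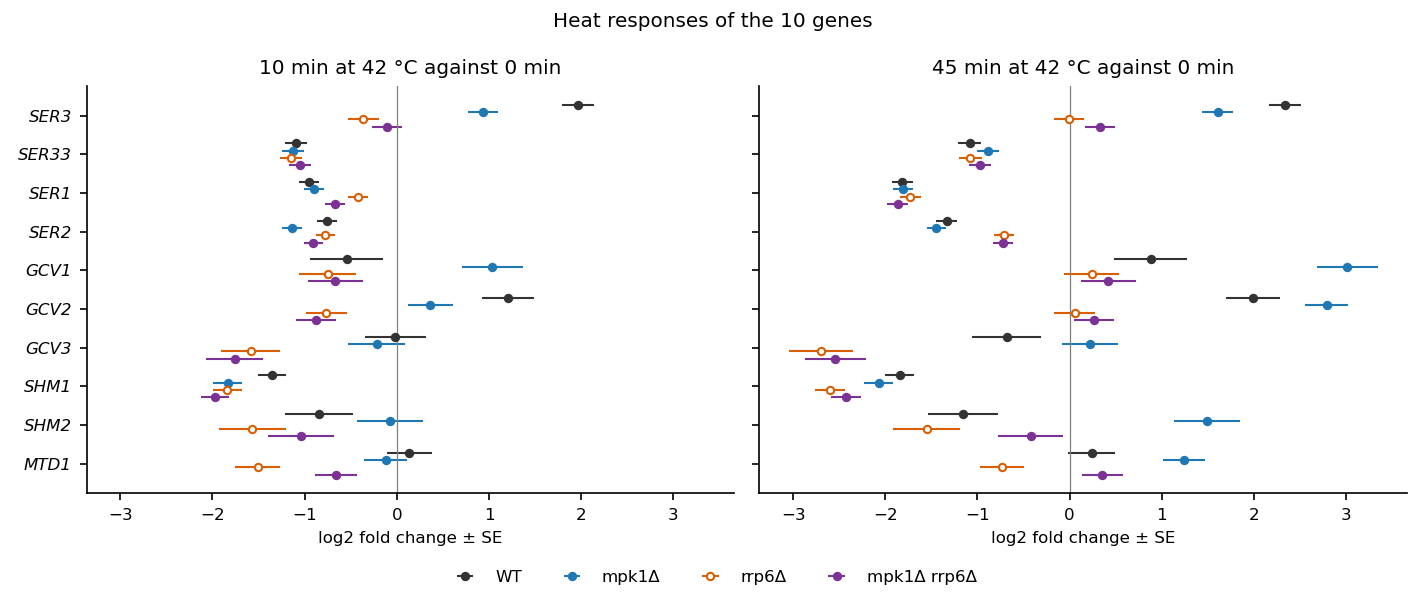
Log2 change with heat of each of the 10 genes, by strain, at 10 and 45 min against 0 min; bars are SE and open circles are the rrp6Δ values given as a description. SER33, SER1, SER2 and SHM1 lie below 0 in every strain, and SER3 and the glycine cleavage genes differ between strains.

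The glycine cleavage genes did not move as a unit in heated WT. In unheated WT, GCV1, the aminomethyltransferase subunit, stood at 14.3, 14.1 and 15.1 CPM, GCV2, the glycine decarboxylase subunit, at 12.5, 9.64 and 9.04 CPM, and GCV3, the lipoyl-carrying subunit, at 44.4, 43.2 and 34.0 CPM. GCV2 rose to 26.7, 20.1 and 24.4 CPM at 10 min and 46.3, 36.1 and 42.9 CPM at 45 min, by 1.21 ± 0.28 (adjusted p = 0.000358) and 1.99 ± 0.29 (adjusted p = 3.39e-07, edgeR). GCV3 had log2 values of -0.01 ± 0.33 and -0.68 ± 0.37, and neither was called. The 45 min value of GCV3 was called lower with total counts (-1.40) and with only the libraries compared (-0.58). GCV1 stood at 10.0, 10.2 and 9.64 CPM at 10 min, a value of -0.55 ± 0.40 that was not called, and at 29.7, 26.9 and 23.4 CPM at 45 min, a called rise of 0.88 ± 0.40 (adjusted p = 0.0428). The GCV1 rise was lost with the replicate letter as a block (0.88), with total counts (0.16), and without any single WT library of either time other than 45 min library C (0.85 to 0.91). The 10 min value of GCV1 was called lower with only the libraries compared (-0.48).

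In mpk1Δ, 2 of the 10 genes were higher and 4 lower at 10 min, against a background of 77.3% called (40.5% higher, 36.9% lower), and 5 were higher and 4 lower at 45 min, against 81.9% (42.4% higher, 39.5% lower). At 10 min the total-count scaling gave 1 higher and 4 lower, where 1868 of the 6017 ORFs were called higher and 2671 lower. GCV1 rose from 21.7, 15.3 and 13.1 CPM to 42.4, 40.4 and 22.3 CPM and then to 105.7, 201.8 and 97.8 CPM. GCV2 went from 26.7, 18.4 and 16.5 CPM to 31.3, 26.5 and 23.0 CPM and then to 98.2, 202.3 and 125.9 CPM. At 45 min every library was above every unheated one for both genes, and library B was the highest.

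The GCV1 rise in mpk1Δ was 1.03 ± 0.33 at 10 min (adjusted p = 0.0058) and 3.01 ± 0.33 at 45 min (adjusted p = 8.9e-10), and that of GCV2 was 2.79 ± 0.23 at 45 min (adjusted p = 3.34e-12, edgeR). The early GCV1 rise was 0.75 and not called with total counts. GCV3 had values of -0.22 ± 0.31 and 0.22 ± 0.30, not called. MTD1, the cytosolic dehydrogenase, went from 54.3, 50.1 and 47.8 CPM to 96.2, 167.8 and 94.7 CPM at 45 min, a rise of 1.24 ± 0.23 (adjusted p = 9.89e-06), while in WT it gave 0.13 ± 0.24 and 0.24 ± 0.26, not called.

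**Figure D4:**
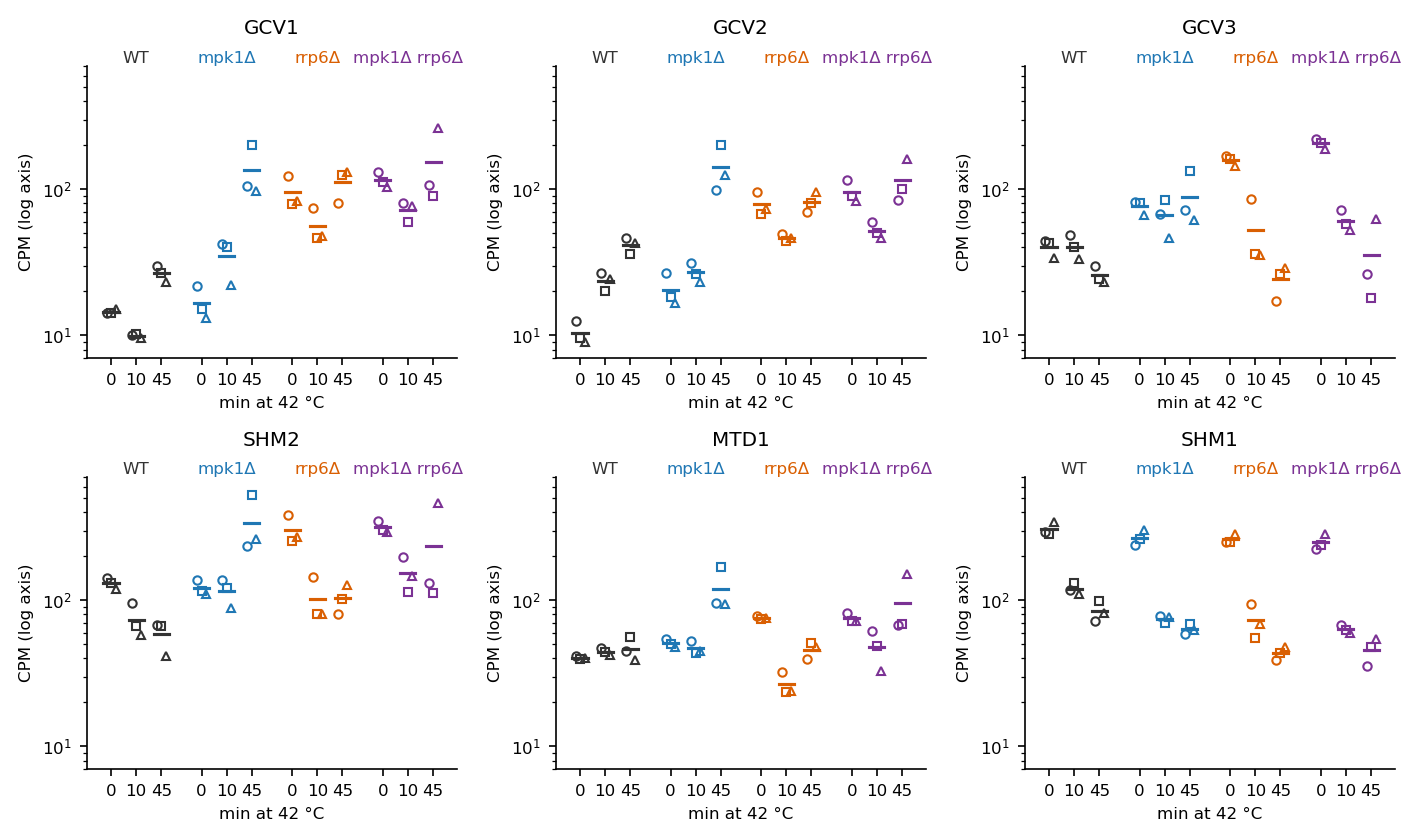
Levels of the glycine cleavage genes and their one-carbon partners in each library, in CPM on a log axis, by strain and minutes at 42 °C; circles, squares and triangles are replicates A, B and C and bars are group means. GCV1 and GCV2 are lowest in unheated WT or WT at 10 min and run from 67.5 to 131.7 CPM in unheated cells without RRP6.

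Before heat, the loss of MPK1 left 1 of the 10 genes called, against a background of 15.2% of ORFs (9.99% higher, 5.22% lower). This was GCV2, higher than WT by 1.0 ± 0.28 (adjusted p = 0.013, edgeR). The call was lost without mpk1Δ library A (0.77), WT library B (0.94) or WT library C (0.94). GCV3 stood at 82.5, 80.5 and 66.6 CPM in mpk1Δ, all above the WT libraries, a difference of 0.91 ± 0.32 (adjusted p = 0.0534). With the paired replicate letters as a replicate block, 2 genes were called, GCV2 and GCV3, the latter at 0.91.

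At 10 min of heat, mpk1Δ was higher than WT in 1 of the 10 genes and lower in 3. The background was 45% of ORFs called (22.6% higher, 22.3% lower). Total counts gave 2 higher and 2 lower, where 2160 of the 6017 ORFs were higher and 764 lower. GCV1 was higher by 1.80 ± 0.36 (adjusted p = 0.000203). SER3 was lower by 0.72 ± 0.16, SER2 by 0.65 ± 0.11 and SHM1 by 0.68 ± 0.15 (adjusted p at most 0.000755, edgeR). The SHM1 difference was -0.43 and not called with total counts. GCV1 rose by 1.58 ± 0.52 more in mpk1Δ than in WT at 10 min (adjusted p = 0.029), and with the SER3 difference given above this made 2 of the 10 responses called, against a background of 21.3% of ORFs (7.98% higher, 13.3% lower). The GCV1 call on responses was lost with total counts (1.67) and without any one of 7 libraries (1.43 to 1.60): WT 0 min B and C, WT 10 min C, mpk1Δ 0 min B and C, and mpk1Δ 10 min A and B.

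At 45 min, 5 genes were higher and 4 lower in mpk1Δ than in WT, against a background of 61.4% of ORFs called (29.9% higher, 31.5% lower). The 5 were GCV1 (2.35 ± 0.35), GCV2 (1.80 ± 0.24), GCV3 (1.82 ± 0.36), SHM2 (2.52 ± 0.39) and MTD1 (1.33 ± 0.24), with adjusted p at most 7.66e-05 (edgeR). No alternative ended one of these 5 calls. The mpk1Δ and WT libraries did not overlap for any of them: for GCV3, mpk1Δ had 72.1, 132.6 and 61.5 CPM and WT 29.7, 24.2 and 23.4 CPM. The 4 lower genes were SER3, SER1, SER2 and SHM1, at -0.41 ± 0.16, -0.27 ± 0.11, -0.38 ± 0.12 and -0.42 ± 0.16. Their adjusted p was at most 0.0435 (edgeR), and the SER1 libraries overlapped. With total counts these 4 values were above 0 instead (0.36, 0.49, 0.39 and 0.34). Total counts called 8 genes higher and none lower, where 3862 of the 6017 ORFs were higher and 665 lower. The SER3 call was lost without WT library A (-0.38) or B (-0.36) or mpk1Δ library A (-0.31), and those of SER1 and SHM1 without mpk1Δ library A (-0.25 and -0.37) or C (-0.22 and -0.41) or WT library B (-0.11 and -0.28). Fitting only the 6 libraries compared ended the calls of SER3 (-0.43), SER1 (-0.28) and SER2 (-0.40), and dropping the low-count filter ended that of SER1 (-0.26).

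Of the late responses, 4 were called different between mpk1Δ and WT, against a background of 42.2% of ORFs (17.5% higher, 24.7% lower). GCV1 rose by 2.13 ± 0.51 more in mpk1Δ (adjusted p = 0.00119), MTD1 by 1.0 ± 0.34 more (adjusted p = 0.0182, lost at 0.67 without mpk1Δ 45 min library B), SHM2 by 2.65 more and SER3 by 0.72 less. Total counts gave 8 higher and none lower, where 2429 of the 6017 ORFs were higher and 594 lower. The GCV2 responses differed by 0.80 ± 0.37 (adjusted p = 0.0848) and those of GCV3 by 0.90 ± 0.48 (adjusted p = 0.132), which were not called; GCV2 was called without mpk1Δ library A of 0 min (1.03) or of 45 min (1.0).

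Without RRP6, GCV1, GCV2, GCV3 and SHM2 were higher before any heat in both backgrounds, and MTD1 was called higher in rrp6Δ against WT. In unheated rrp6Δ, GCV1 was at 123.8, 79.0 and 83.2 CPM, GCV2 at 96.4, 67.5 and 73.7 CPM and GCV3 at 169.3, 160.4 and 144.2 CPM. All were above all WT libraries. SHM2 stood at 380.7, 255.7 and 271.5 CPM and MTD1 at 77.8, 74.5 and 76.2 CPM, again above every WT library. Of the 9 genes other than SER3, 5 were higher and 1 was lower than in WT, against a background of 14% of ORFs called (9.32% higher, 4.64% lower). With total counts 5 of the 9 were higher and none lower, where 930 of the 6017 ORFs were higher and 84 lower.

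The differences between unheated rrp6Δ and WT were 2.94 ± 0.27 for GCV2 (adjusted p = 1.11e-09), 2.72 ± 0.35 for GCV1 (adjusted p = 9.46e-07), 1.96 ± 0.33 for GCV3 (adjusted p = 5.19e-05), 1.20 ± 0.36 for SHM2 (adjusted p = 0.0227) and 0.91 ± 0.24 for MTD1 (adjusted p = 0.00757, edgeR). The SHM2 call was lost without WT library A (1.26), B (1.21) or C (1.14) or rrp6Δ library A (1.0). SER2 was lower by 0.39 ± 0.10, a call lost without WT library C (-0.34) and with total counts (-0.22). SER33, SER1 and SHM1 gave -0.20 ± 0.12, -0.18 ± 0.11 and -0.22 ± 0.15, not called. SER3, as a description, differed by 1.47 ± 0.17. Reads outside annotated features were 5.36% to 5.61% of the reads in unheated rrp6Δ and 2.04% to 2.11% in unheated WT; their part in these differences was not tested.

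The double deletion against mpk1Δ gave a second, separate set of libraries for RRP6 loss. At 0 min, 6 of the 10 genes were higher and none lower, against a background of 7.28% of ORFs called (4.67% higher, 2.61% lower). GCV1 stood at 131.7, 111.6 and 102.9 CPM, GCV2 at 115.0, 89.4 and 82.7 CPM and GCV3 at 222.2, 208.2 and 188.1 CPM in the double deletion, each above every mpk1Δ library. The differences were 2.78 ± 0.33 for GCV1 (adjusted p = 1.68e-07), 2.21 ± 0.23 for GCV2 (adjusted p = 1.85e-08) and 1.43 ± 0.31 for GCV3 (adjusted p = 0.00183, edgeR). No alternative ended these 3 calls.

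SHM2 was higher by 1.38 ± 0.36 in the same comparison (adjusted p = 0.0124), SER3 by 0.64 ± 0.16 (adjusted p = 0.011) and SER1 by 0.37 ± 0.11 (adjusted p = 0.0282). The SHM2 call was lost without double-deletion library A (1.30) or mpk1Δ library B (1.35) or C (1.32), and the SER3 call without mpk1Δ library C (0.61) or double-deletion library C (0.46). The SER1 call was lost without any one of the 6 libraries (0.33 to 0.40). Without mpk1Δ library C, 3 genes remained called. MTD1 gave 0.57 ± 0.23 (adjusted p = 0.144), with no overlap between the groups. The groups also did not overlap for AIM9 (-0.23, adjusted p = 0.6) and GET2 (-0.10, adjusted p = 0.804, edgeR), ORFs next to SER3. Reads outside features were 4.41% to 4.97% in the double deletion and 2.20% to 2.38% in mpk1Δ; their part was not tested.

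**Figure D5:**
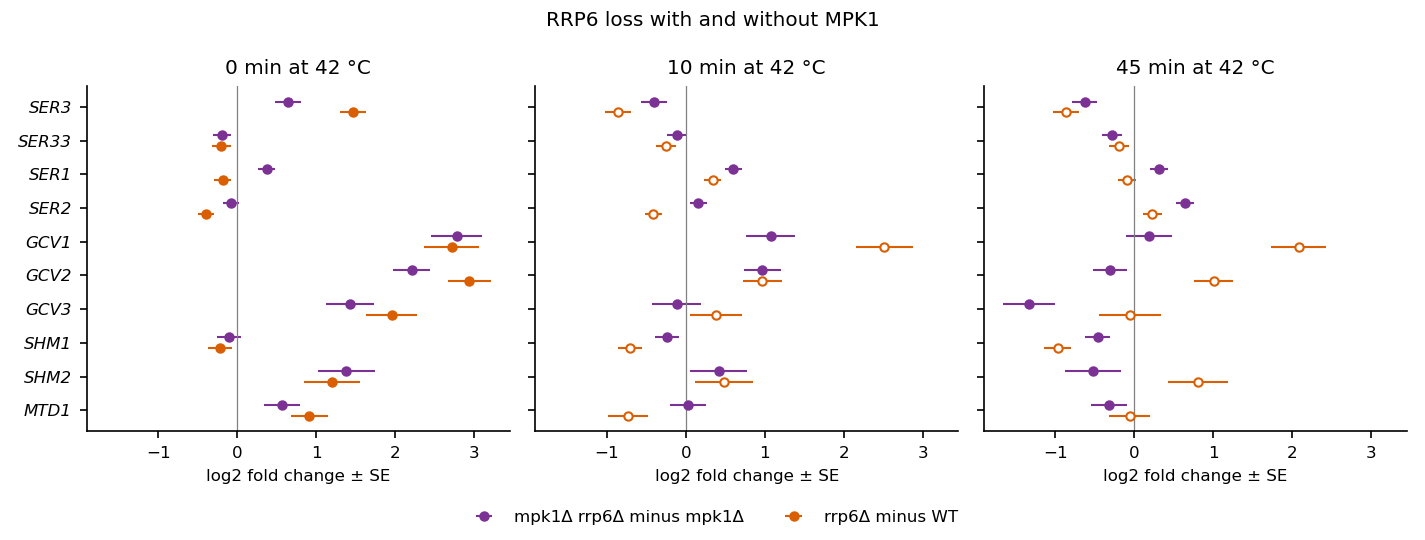
Log2 difference made by the loss of RRP6 for each of the 10 genes at 0, 10 and 45 min, with RRP6 removed from WT and from mpk1Δ; bars are SE and open circles are the heated rrp6Δ values given as a description. GCV1 and GCV2 lie above 2 before heat in both backgrounds, and in the mpk1Δ background the differences of the GCV genes, SHM2 and SER3 shrink or turn below 0 by 45 min.

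With heat, the differences of GCV1 and GCV2 between the double deletion and mpk1Δ were smaller than before heat, and those of GCV3 and SER3 were below 0 by 45 min. That of SER1 was larger at 10 min, but its heat response was not called different between the 2 strains. At 10 min, 3 genes were higher and none lower, against a background of 20% of ORFs called (11.5% higher, 8.51% lower). Total counts left 2 called, where 413 of the 6017 ORFs were higher and 615 lower. GCV1 was higher by 1.08 ± 0.31 (adjusted p = 0.0148), GCV2 by 0.97 ± 0.23 (adjusted p = 0.00374) and SER1 by 0.60 ± 0.11 (adjusted p = 0.000255). The GCV1 call was lost with total counts (0.97) and without double-deletion library A (0.99) or mpk1Δ library C (0.81). SER3 gave -0.40 ± 0.16 (adjusted p = 0.0773, edgeR) with overlapping libraries, and was called lower without mpk1Δ library B (-0.57).

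At 45 min, 2 genes were higher and 3 lower, against a background of 27.8% of ORFs called (15.5% higher, 12.3% lower). SER3 was lower in the double deletion by 0.63 ± 0.16 (adjusted p = 0.00464), with no overlap, and GCV3 by 1.33 ± 0.33 (adjusted p = 0.00325), with overlap: the double deletion had 26.3, 18.0 and 62.3 CPM of GCV3 and mpk1Δ 72.1, 132.6 and 61.5 CPM. SHM1 was lower by 0.47 ± 0.16, SER2 was higher by 0.64 ± 0.11 and SER1 by 0.31 ± 0.11. With total counts the SER1 value was -0.00375, the SER2 value 0.33 was not called, and 4 genes were lower and none higher. Over all 6017 ORFs, total counts called 323 higher and 1905 lower. Fitting only the 6 libraries compared left 1 gene called, SER2; SER3 was then at -0.66 and GCV3 at -1.35, not called. The SHM1 call was lost without either library A or B of the double deletion or library B or C of mpk1Δ (-0.51 to -0.33), and that of SER1 without mpk1Δ library A or C or double-deletion library B (0.22 to 0.29).

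Library C of the double deletion at 45 min stood apart for several of these genes. GCV1 read 107.8, 90.6 and 264.2 CPM in libraries A, B and C, SHM2 132.3, 111.5 and 463.6 CPM, and MTD1 67.8, 69.3 and 151.2 CPM. Without the heated double-deletion libraries of letter C, 8 genes were called between the double deletion and mpk1Δ at 45 min, the added ones being GCV2 (-0.64), SHM2 (-1.49) and MTD1 (-0.82), each lower. SHM2 then also fell from 0 to 45 min in the double deletion, by 1.34, against -0.42 ± 0.35 with all libraries.

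Within the double deletion, 9 of the 10 genes were lower and none higher at 10 min than at 0 min, against a background of 74.7% of ORFs called (37.3% higher, 37.3% lower). At 45 min, 5 were lower and none higher, against a background of 77.8% (39.9% higher, 37.9% lower). GCV3 fell from the levels given above to 72.3, 57.7 and 52.6 CPM at 10 min, by 1.76 ± 0.31 (adjusted p = 9.15e-06), and its change at 45 min was -2.54 ± 0.34 (adjusted p = 5.39e-08). GCV2 fell by 0.88 ± 0.22, GCV1 by 0.67 ± 0.30, SHM2 by 1.04 ± 0.36 and MTD1 by 0.66 ± 0.23 at 10 min (adjusted p at most 0.0429, edgeR). At 45 min GCV1 was at 0.42 ± 0.30, GCV2 at 0.27 ± 0.22 and MTD1 at 0.36 ± 0.23, not called. The early GCV1 call was lost with DESeq2 (-0.61), with a filter on mean CPM (-0.62) and without any one of 0 min libraries A and B or 10 min libraries B and C (-0.69 to -0.55). The early SHM2 call was lost without 10 min library B (-0.87), and that of MTD1 without 10 min library C (-0.40). Without 45 min library B, 8 genes were called at 45 min, 3 higher and 5 lower. The higher ones were SER3 (0.41), GCV1 (0.72) and MTD1 (0.58). MTD1 was also called higher without 45 min library A (0.58).

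Compared as responses, 4 genes moved lower with 10 min of heat in the double deletion than in mpk1Δ and none higher, against a background of 7.55% of ORFs called (4.3% higher, 3.24% lower). Besides SER3 these were GCV1 (-1.70 ± 0.44, adjusted p = 0.0164), GCV3 (-1.54 ± 0.44, adjusted p = 0.0249) and GCV2 (-1.24 ± 0.33, adjusted p = 0.017, edgeR). Leaving out mpk1Δ library C of 0 min kept SER3 alone, and 2 stayed called without double-deletion library A of 0 min, mpk1Δ library B of 10 min or double-deletion library B of 10 min. At 45 min, 5 responses were lower and 1 was higher, against a background of 17.2% of ORFs called (9.19% higher, 8.01% lower). GCV3 differed by -2.76 ± 0.45 (adjusted p = 8.35e-05), GCV1 by -2.59 ± 0.44 (adjusted p = 0.000115), GCV2 by -2.52 ± 0.32 (adjusted p = 1.5e-06), SHM2 by -1.91 ± 0.50 (adjusted p = 0.00838) and SER3 by -1.27, while SER2 was the one higher. MTD1 differed by -0.89 ± 0.32 (adjusted p = 0.052, edgeR), and was called lower with a filter on mean CPM (-0.92), with total counts (-1.28), and without mpk1Δ 45 min library A (-1.01) or C (-1.03), double-deletion 45 min library C (-1.37) or library C of both heated double-deletion times (-1.39). With total counts 7 responses were lower and none higher, where 1453 of the 6017 ORFs were lower and 122 higher. No alternative ended a call on the 5 lower responses.

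The heated rrp6Δ libraries are described only. GCV1 stood at 74.5, 46.5 and 48.2 CPM at 10 min and at 81.1, 125.1 and 131.1 CPM at 45 min, above every WT library of those times, with log2 differences of 2.51 ± 0.36 and 2.08 ± 0.35. GCV2 differed from WT by 0.97 ± 0.24 and 1.01 ± 0.25. GCV3 read 17.3, 26.5 and 29.0 CPM at 45 min, a log2 value of -2.70 ± 0.35 against 0 min, and overlapped heated WT. SHM2 had -1.57 ± 0.36 and -1.55 ± 0.37 for heat, and SHM1 -1.84 ± 0.16 and -2.60 ± 0.17. SER33 had -1.15 and -1.08, SER1 -0.42 and -1.73, SER2 -0.77 and -0.71, and MTD1 -1.51 and -0.73.

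Pairs of the genes followed each other to different degrees. Over the 12 group means of log2 CPM, as a description of values that share libraries, SER33 and SHM1 had r = 0.913, SHM1 and SER2 0.880, SER1 and SER2 0.804, and GCV1 and GCV2 0.925. SER3 had r = -0.698 with SER1 and -0.581 with SER33. GCV3 had r = 0.272 with GCV1 and 0.760 with SHM2.

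Of the 5 ORFs next to SER3, 0 were called by edgeR or DESeq2 in unheated rrp6Δ against WT or in the unheated double deletion against mpk1Δ, and 0 had an unadjusted p below 0.05. The background was 14% and 7.28% of ORFs called by edgeR, so 0 of 5 is no result about these ORFs. The nearest upstream ORF on the same strand, AIM9, gave -0.13 and -0.23, and the nearest downstream ORF, UTP7, a gene for ribosome assembly, gave 0.08 and -0.06. With heat, UTP7 was called higher in the double deletion than in mpk1Δ, by 0.87 at 10 min and 0.93 at 45 min. Its adjusted p was 0.00193 and 0.00103 (edgeR). The other 4 were not called at either time, against a background of 20% and 27.8% of ORFs called. In WT at 45 min, YER079W was higher by 2.63, and AIM9, UTP7, GET2 and ICP55 were lower by 1.81, 1.83, 1.51 and 0.43 in log2 terms. The background there was 80.2% of ORFs called (41% higher, 39.2% lower).

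Other genes of these pathways were called with RRP6 loss before heat at 0 or 1 of 12 per list, against a background of 14% of ORFs in rrp6Δ against WT and 7.28% in the double deletion against mpk1Δ. Counts this near those shares are no result about the lists. Of 12 genes around serine and glycine metabolism, 1 was called in rrp6Δ against WT, the mitochondrial carrier gene FLX1 (0.58), and 0 were called in the double deletion against mpk1Δ by edgeR or DESeq2, with 4 at an unadjusted p below 0.05. LPD1, the subunit that glycine cleavage shares with other complexes, gave -0.18 and -0.28. Of 12 folate and one-carbon genes, 1 was called in rrp6Δ, the dihydrofolate reductase gene DFR1 (-0.73; -0.55 and not called with total counts), and 0 in the double deletion by edgeR or DESeq2, with 3 at an unadjusted p below 0.05. With total counts 2 folate genes were higher in each comparison, where 930 and 351 of the 6017 ORFs were higher. Of 12 genes of purine synthesis and its activators, 0 were called in rrp6Δ by edgeR (2 at an unadjusted p below 0.05, 1 by DESeq2) and 1 in the double deletion, ADE8 (0.51). As a description, with SER3 included, median log2 values of the 10 genes were 1.06 in rrp6Δ and 0.60 in the double deletion, against 0.03 and -0.01 for all ORFs.

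With 45 min of heat in WT, 2 of the 12 serine and glycine genes rose and 7 fell, against a background of 80.2% of ORFs called (41% higher, 39.2% lower), which also holds for the other lists. FDH1, for formate dehydrogenase, had at most 2 counts per unheated WT library and stood at 9.41, 11.4 and 27.8 CPM at 45 min; CYS4, which uses serine for cystathionine synthesis, fell by 2.67 and CHA1, the serine and threonine deaminase, by 2.04. Of the folate genes 3 rose and 6 fell, with MET13, for methylenetetrahydrofolate reductase, at 2.51 and MIS1, a mitochondrial one-carbon enzyme, at -1.71. Of the purine genes 3 rose and 7 fell, led by ADE1 (-2.39) and ADE13 (-2.37). Total counts gave 2 and 9, 2 and 9, and 0 and 9, where 1618 of the 6017 ORFs were higher and 3311 lower.

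In mpk1Δ against WT at 45 min, 2 of the 12 serine and glycine genes were higher and 4 lower, against a background of 61.4% of ORFs called (29.9% higher, 31.5% lower), with CHA1 at 1.23 and FLX1 at -0.96. Of the folate genes 3 were higher and 4 lower, with MIS1 at -2.21 and ADE3, its cytosolic counterpart, at -1.20. Of the purine genes 5 were higher and 2 lower, with ADE6 at -1.60 and ADE17 at 1.36. With total counts 9, 7 and 10 of these genes were higher and 0, 2 and 1 lower, and FLX1 (-0.19) was not called. Over all 6017 ORFs, total counts called 3862 higher and 665 lower. MIS1 was higher in the double deletion than in mpk1Δ at 45 min by 1.68, and CHA1 lower by 1.51.

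A further list held 18 genes for chromatin and transcription factors, several of which are known to be needed for repression of SER3 by SRG1 transcription. In unheated rrp6Δ 1 of the 18 was called, SPN1 (-0.27; -0.09 and not called with total counts), against 3 with DESeq2 and a background of 14% of ORFs. In the unheated double deletion against mpk1Δ 0 were called by edgeR or DESeq2, and 0 had an unadjusted p below 0.05, against a background of 7.28%. With 45 min of heat in WT 4 rose and 9 fell (background 41% and 39.2%). SNF2, the Swi/Snf ATPase, was at 2.19, SPT7, a SAGA subunit, at 2.00, and SPT4, an elongation factor, at -1.98. Total counts gave 2 and 15, where 1618 of the 6017 ORFs were higher and 3311 lower. In mpk1Δ against WT at 45 min, 8 were higher and 6 lower (background 29.9% and 31.5%). CTR9 (-1.76) and SPT7 (-1.70) were lower and SPT4 (1.35) was higher. Total counts gave 13 and 2 there, where 3862 of the 6017 ORFs were higher and 665 lower.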

How the data were processed

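Per the labels, total RNA of 36 yeast cultures was sequenced. The deposited values are raw counts, 1 per ORF, which the authors made, per the submitters' processing notes, with HISAT2 2.1.0 and HTSeq on genome build R64. How HTSeq treated strand, and its version, is not given in the sources used here. Its 5 summary lines (15.9% to 50.1% of reads) stayed out of library sizes and tests. At 45 min their share was 43.7% to 50.1% in rrp6Δ and 41.3% to 44.3% in the double deletion. In WT it was 21.6% to 30.8% and in mpk1Δ 25.1% to 30.6% at that time. The part of this share in the differences was not tested. Of 6600 identifiers, 5917 matched the R64 reference.

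edgeR 4.0.16 (R 4.3.3) fitted all 36 libraries with 1 coefficient per group, after filterByExpr (minimum count 10, minimum total 15) and TMM scaling (factors 0.618 to 1.388; common biological coefficient of variation 0.1535). Benjamini-Hochberg adjustment covered 6017 ORFs in each of 17 comparisons. SE is the log2 value over the root of F, and 95% intervals are 1.96 SE on either side. Log2 CPM used a prior count of 2. The procedure was tested on simulated data for the double deletion against mpk1Δ at 10 min only. The simulation held neither the broad changes with heat nor a replicate spread that differs between ORFs. No replicate pair agreed within sampling noise (lowest chi-square 3.33 per ORF). An exact permutation test on 3 libraries a side has a smallest two-sided p of 0.1.

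The genes, lists and tests were chosen with earlier results of these data known. The genes named were the 10, both deleted genes, the 5 ORFs around SER3, up to 3 called genes of each list and comparison with the largest change, and the 5 genes most correlated with SER3; AIM9 and UTP7 values, LPD1 and other uncalled list genes were chosen after their values were seen. Replicate letters paired where all same-letter correlations exceeded 0.1: in 2 of 13 comparisons, mpk1Δ against WT at 0 min (0.154, 0.117, 0.106) and at 45 min (0.198, 0.285, 0.148). Alternatives were DESeq2 1.42.0, 2 other filters, 2 other scalings, only the libraries compared, the replicate letter as a block, and leaving libraries out.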

Additional observations from a re-analysis of the deposited data

Results flagged for a closer look

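Each value here is a log2 difference between heat responses that passed the test of the difference itself (edgeR, adjusted p below 0.05). At 10 min, the response in mpk1Δ minus that in WT was 1.58 for GCV1 and -1.03 for SER3. At 45 min it was 2.13 for GCV1, 2.65 for SHM2, 1.0 for MTD1 and -0.72 for SER3. The response in the double deletion minus that in mpk1Δ at 10 min was -1.70 for GCV1, -1.54 for GCV3, -1.24 for GCV2 and -1.05 for SER3. At 45 min it was -2.76 for GCV3, -2.59 for GCV1, -2.52 for GCV2, -1.91 for SHM2, -1.27 for SER3 and 0.72 for SER2. Both sets use the mpk1Δ libraries.

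Reads outside annotated features, which enter no gene count, were more frequent in every rrp6Δ library than in any WT library of the same time. The lowest rrp6Δ share was 5.36% at 0 min, 6.97% at 10 min and 7.89% at 45 min, and the highest WT share was 2.11%, 4.46% and 6.52%. In the mpk1Δ background, the double deletion was above mpk1Δ at 0 and 10 min and below it at 45 min. At 45 min the shares were 8.34% to 8.48% in the double deletion and 8.85% to 10.06% in mpk1Δ. Where these reads lie was not analysed here.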

How the results depend on the processing

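Of 2510 recomputed log2 values of the 10 genes, 2346 stayed on their side of the threshold with no called value changing sign (59 uncalled ones changed sign), 67 passed newly, 91 no longer passed and 6 reversed. The reversals came from scaling by total counts, which moves the median of all ORFs: in mpk1Δ against WT at 45 min SER3 0.36, SER1 0.49, SER2 0.39 and SHM1 0.34, in the double deletion against mpk1Δ at 45 min SER1 -0.00375, and in the late response of mpk1Δ minus WT SER2 0.50.

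For mpk1Δ against WT at 0 min, the count of 1 called gene became 4 with DESeq2, 3 with DESeq2 size factors, 2 with total counts, 6 with only the libraries compared and 2 with the replicate block, and ranged from 0 to 1 with single libraries left out. Over all 6017 ORFs, total counts called 863 higher and 78 lower there, against 601 and 314 with TMM. Leaving out single libraries gave 5 to 8 in the double deletion at 45 min against 0 min (5 with all), and 3 to 5 (6 with all) at 0 min and 3 to 8 (5 with all) at 45 min against mpk1Δ. The last count was 1 with only the libraries compared and 8 without the heated double-deletion libraries of letter C. Early responses of mpk1Δ minus WT (2 called) gave 1 with total counts, 5 with only the libraries compared and 1 to 2 with libraries left out, and the late ones (4 called) gave 8 with total counts. Total counts called 405 of the 6017 ORFs higher and 522 lower in the early responses, and 2429 and 594 in the late ones. Early responses of the double deletion minus mpk1Δ (4 called) gave 1 to 4. The cause was not tested, except that fewer libraries entered the fits that left some out.

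The replicate block moved 1 other count, WT at 45 min against 0 min, from 8 to 7, and the letters did not pair there. With 3 libraries per group, differences near the spread of the GCV genes and SHM2 (SE 0.22 to 0.40) are the least settled.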
